A study of Mus musculus with 6 samples.

Results

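The genes described here are CC and CXC chemokine ligands, the small secreted proteins that draw leukocytes along a gradient. The set was a list of 10 gene symbols, chosen by name with earlier results of these data known. They were Ccl2, Ccl3, Ccl4, Ccl5, Ccl6, Ccl7, Ccl9, Cxcl2, Cxcl10 and Cxcl16. Of these, 7 have a row among the 17872 genes of the count table used. Ccl2, Ccl6 and Cxcl10 were not analysed here. BV2, a mouse microglial line kept in culture, was profiled by RNA-seq in 6 libraries: 3 of wild-type cells (control replicates 1 to 3) and 3 of cells labelled as a CRISPR-Cas9 knockout of Tfam, which encodes the packaging and transcription factor of mitochondrial DNA. Other than puromycin, the labels name no treatment of either group. Per the labels' protocols the cells were kept in puromycin at 2 µg/mL after editing. The labels do not make clear whether the wild-type cells were too, nor whether the edited cells were 1 clone or a pool. Whether puromycin or the editing procedure had a part in the results was not tested. Total counts ran from 14642397 to 28418133 in controls and from 13850691 to 20889786 in the libraries labelled knockout.

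Chemokines fall into families by the spacing of cysteines near the start of the mature protein, which are adjacent in CC ligands and parted by 1 residue in CXC ligands. They act through G protein-coupled receptors on the target cell, and 1 receptor usually takes several ligands. In microglia and macrophages many ligand genes are switched on by NF-kB and interferon signalling, and their mRNAs are short-lived.

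The mRNA of Tfam did not mark the groups: it was at 38.2 ± 1.01 CPM in controls and 42.3 ± 1.15 CPM in the libraries labelled knockout (SD, n = 3 each; adjusted p = 0.193, edgeR). CPM here are counts per 1000000 after TMM scaling. The level of this mRNA therefore does not check the labels, and each direction below is that of libraries labelled knockout relative to controls. Of 10 microglia and macrophage markers, 9 have a row and all 9 were tested. Their summed level was 3580 to 4010 CPM in controls and 2650 to 2850 CPM in knockout-labelled libraries, with 6 lower and 1 higher. Over all tested genes the shares were 22.9% lower and 21.3% higher (edgeR, adjusted p below 0.05). Sums over markers of other cell types were far lower in both groups. Over the 2 of 6 fibroblast markers with a row the sum was 1.64 to 2.83 CPM in controls against 0.488 to 0.614, and over 2 of 6 neutrophil markers 4.37 to 7.37 against 0.862 to 1.47. Over 2 of 6 lymphocyte markers it was 0.0652 to 0.495 against 0.142 to 0.767, and over 3 of 6 neural markers 20.1 to 22.7 against 8.92 to 11.0. The lowest row total in the count table is 6, so no marker with a row could be at 0 in all libraries. The part of these shifts in the ligand results was not tested. In bulk RNA a smaller share of expressing cells and less RNA per cell cannot be told apart. Nothing in the labels ties a replicate to its own culture, and the p-values cover only the spread among these 6 libraries, which may be technical.

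Of the 7 ligands, 6 had enough counts to be tested. Of these, 5 rose in knockout-labelled libraries (Cxcl2, Ccl7, Ccl5, Ccl9 and Ccl3), none fell, and Ccl4 did not pass (edgeR's quasi-likelihood test, adjusted p below 0.05 over all 13403 genes tested). Over all tested genes 44.2% were called, 21.3% as higher and 22.9% as lower, so calls were common in this comparison. The 5 rises ran from 1.47-fold (Ccl3) to 6.92-fold (Cxcl2). The median log2 fold change over the 6 tested ligands was 0.79, against 0.00124 over all tested genes. The set was chosen with earlier results of these data known, so these counts and this median only describe it. When tested against a change of 1.5-fold, 3 ligands remained called, Cxcl2, Ccl7 and Ccl5, where 2.90% of all tested genes were called as higher and 5.26% as lower. Of the 3, Ccl5 only just passed (adjusted p = 0.0476, edgeR's test against 1.5-fold).

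**Figure D1:**
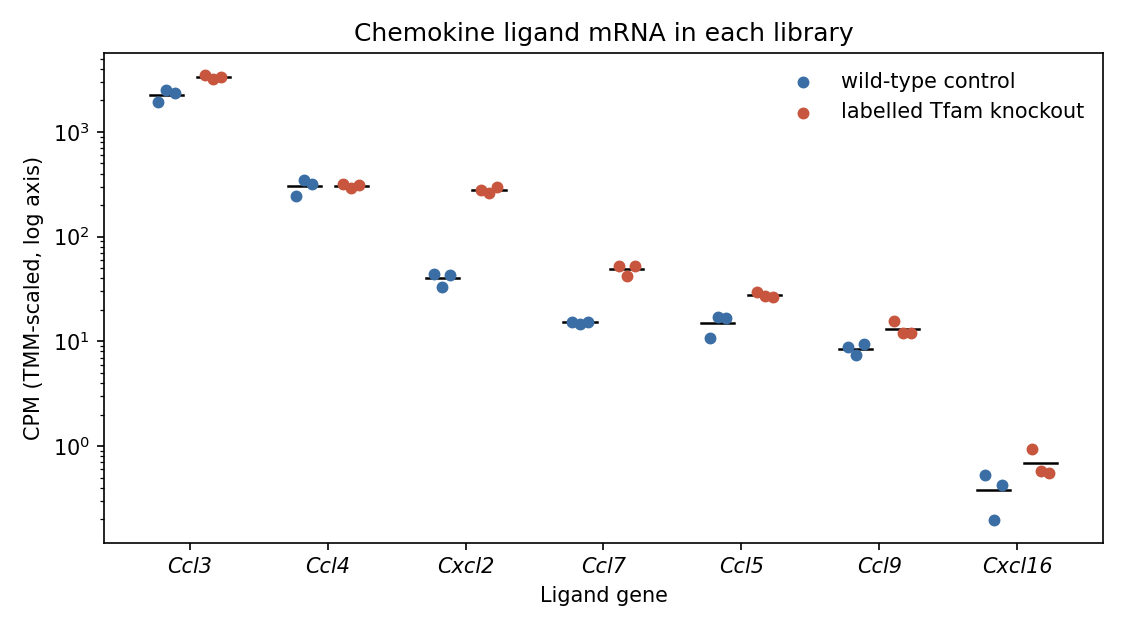
CPM of 7 chemokine ligand genes (log axis) in each of 3 control and 3 labelled knockout libraries; points are libraries and short lines are group means. Points of the groups lie apart for Cxcl2, Ccl7, Ccl5, Ccl9, Ccl3 and Cxcl16 and are mixed for Ccl4, the second most abundant ligand in both groups.

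Promoter windows are shown for the ligands that rose and have an entry in the RefSeq promoter table (GRCm38.p6), namely Cxcl2, Ccl9 and Ccl3. They were chosen because these genes moved in the same direction. For Ccl4, Ccl5, Ccl7 and Cxcl16 no entry was at hand. The windows therefore could not be set beside that of Ccl4, which did not pass the test. Each is the 250 bases before the annotated start, 5′ to 3′ on the gene's strand, and capitals mark matches to the NF-kB consensus on either strand. The windows lie at chr5:90903649-90903898 on the plus strand (Cxcl2), and on the minus strand at chr11:83578637-83578886 (Ccl9) and chr11:83649379-83649628 (Ccl3).
Cxcl2: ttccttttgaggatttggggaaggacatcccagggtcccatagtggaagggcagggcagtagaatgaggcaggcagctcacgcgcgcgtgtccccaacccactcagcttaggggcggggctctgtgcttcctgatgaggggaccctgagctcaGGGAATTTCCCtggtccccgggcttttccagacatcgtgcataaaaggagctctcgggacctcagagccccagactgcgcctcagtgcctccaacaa
Ccl9: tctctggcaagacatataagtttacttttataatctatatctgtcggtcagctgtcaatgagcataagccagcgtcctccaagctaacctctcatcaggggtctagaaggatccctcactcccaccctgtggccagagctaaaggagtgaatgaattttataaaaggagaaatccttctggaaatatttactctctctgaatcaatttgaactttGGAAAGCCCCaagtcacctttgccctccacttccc
Ccl3: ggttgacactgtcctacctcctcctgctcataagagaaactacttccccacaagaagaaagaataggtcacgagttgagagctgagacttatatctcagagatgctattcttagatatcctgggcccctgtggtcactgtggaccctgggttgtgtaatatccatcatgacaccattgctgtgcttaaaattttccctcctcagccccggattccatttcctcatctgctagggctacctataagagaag

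In the Cxcl2 window the consensus matched on both strands at overlapping positions, GGGAATTTCC from 97 to 88 bases before the start and its minus-strand counterpart from 96 to 87. In the Ccl9 window it matched once, on the minus strand, from 35 to 26 bases before the start, and in the Ccl3 window there was no match. The consensus was found in 3.75% of 27025 promoters over the same length. Of the other motifs searched on both strands, AP-1 (TGANTCA, in 6.87% of promoters) matched only in the Ccl9 window, as did the TATA letters TATAAA (12.97% of promoters). The interferon response core (ISRE, 3.04%) and the C/EBP letters TTGCNNAA (9.55%) matched in none of the 3 windows. A match describes the letters and not a bound site.

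Cxcl2, the mouse neutrophil attractant that signals through Cxcr2, showed the largest change of the ligands. Reads counted for it numbered 1246, 508 and 608 for controls 1 to 3, against 5907, 4562 and 4238 for knockout-labelled replicates 1 to 3. In CPM these were 44.3, 33.1 and 43.0 against 278.9, 262.1 and 295.6. The lowest labelled knockout library therefore lay far above the highest control. Cxcl2 rose by 2.79 ± 0.0996 on the log2 scale (SE; adjusted p = 1.23e-12, edgeR), rank 23 among 13403 tested genes ordered from the largest rise. Transcripts of Cxcl2 and its paralog Cxcl3 align over 550 bases at 90.7% identity, so part of the Cxcl2 count may be shared with Cxcl3, which was not analysed here.

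The monocyte attractant Ccl7 (MCP-3), a ligand of Ccr2 and Ccr1, rose 3.22-fold. Its levels were 15.3, 14.7 and 15.4 CPM in controls and 51.8, 42.5 and 51.8 CPM in knockout-labelled libraries. The controls were nearly alike, and knockout-labelled replicate 2 was the lowest of its group while still well above them. The log2 fold change was 1.68 ± 0.107 (SE, adjusted p = 1.58e-09, edgeR), rank 83 from the largest rise. Raw counts were 431, 226 and 217 against 1098, 739 and 743.

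Ccl3 and Ccl5 are CC ligands that act on Ccr1 and attract monocytes and T cells. Ccl3 (MIP-1 alpha) was the most abundant chemokine ligand measured, at 1931, 2516 and 2325 CPM in controls and 3470, 3194 and 3315 CPM in knockout-labelled libraries. The groups did not overlap, and control 1 was the lowest library. Ccl3 rose 1.47-fold, or 0.56 ± 0.102 on the log2 scale (SE, adjusted p = 0.000265, edgeR). Ccl5 (RANTES) was at 10.7, 16.9 and 16.8 CPM in controls and 29.8, 27.0 and 26.4 CPM in knockout-labelled libraries. Again control 1 was lowest and no values overlapped. Ccl5 rose 1.91-fold, a log2 fold change of 0.93 ± 0.148 (SE, adjusted p = 7.23e-05, edgeR).

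Ccl4 (MIP-1 beta), the neighbour of Ccl3 on chromosome 11, did not pass the test. Its levels were 242.0, 346.2 and 315.7 CPM in controls and 314.9, 289.7 and 309.0 CPM in knockout-labelled libraries, so that every labelled knockout value lay within the range of the controls. The log2 fold change was 0.02 ± 0.103 (SE, adjusted p = 0.911, edgeR) with a 95% interval from -0.20 to 0.24. The ratio of Ccl4 to Ccl3 counts needs no scaling between libraries and was compared directly. Ccl4 counts were 12.5%, 13.8% and 13.6% of Ccl3 counts in controls and 9.07%, 9.07% and 9.32% in knockout-labelled libraries. The ratio was lower in all 3 labelled knockout libraries than in any control, a log2 difference of -0.54 ± 0.044 (SE), with an exact two-sided permutation p of 0.1, the smallest that 3 against 3 can give. In RefSeq the spans of both genes overlap by 755 bases, while their GENCODE exons do not, and reads of overlapping genes cannot be parted without strand.

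**Figure D2:**
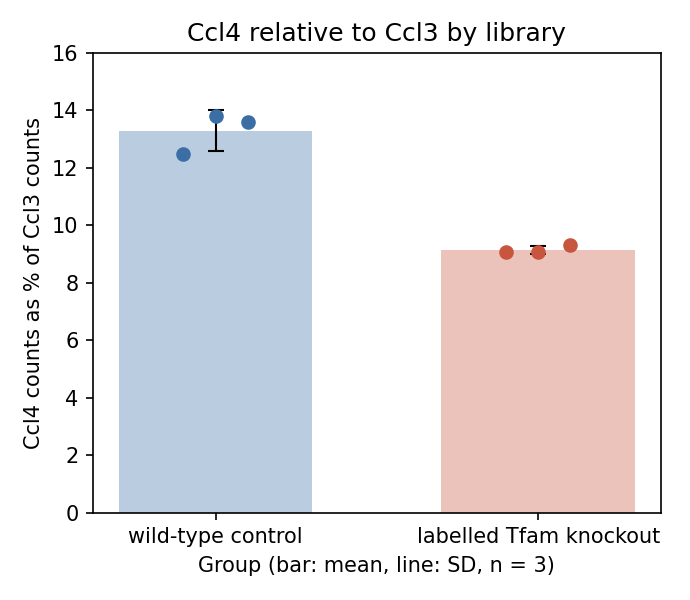
Ccl4 counts as a percentage of Ccl3 counts in the same library; bars are means, lines are SD (n = 3) and points are libraries. Controls lie from 12.5% to 13.8% and knockout-labelled libraries from 9.07% to 9.32%.

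Ccl9, a rodent CC ligand that acts on Ccr1, was at 8.78, 7.37 and 9.34 CPM in controls and 15.6, 12.06 and 11.998 CPM in knockout-labelled libraries. All 3 labelled knockout values exceeded the highest control, with replicate 1 above the others. Ccl9 rose 1.56-fold, a log2 fold change of 0.64 ± 0.153 (SE, adjusted p = 0.00255, edgeR). Its transcripts match those of 426 other genes at 90% identity or more over stretches of 100 to 195 bases, so reads from these stretches are uncertain.

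Cxcl16, the membrane-anchored ligand of Cxcr6 that is also shed from the cell surface, was near the limit of detection. Only 15, 3 and 6 reads were counted in controls, against 20, 10 and 8 in knockout-labelled libraries, too few for the test. In CPM these were 0.533, 0.195 and 0.425 against 0.944, 0.575 and 0.558, which do not overlap but rest on few counts. With no filter on low counts the log2 fold change was 0.81 ± 0.592 (SE, adjusted p = 0.33, edgeR), so a difference was not detectable at this depth. GENCODE places 18.3% of its 3021 exon bases on those of Zmynd15 on the opposite strand.

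Groups did not overlap for Cxcl2, Ccl7, Ccl5, Ccl9 and Ccl3 among the 6 tested ligands, where 26.3% of all tested genes were higher without overlap. Per length of annotated exons, Ccl3 was highest in controls with 2947 ± 390 CPM per kilobase (SD, n = 3). It was followed by Ccl4 (457 ± 81.2), Cxcl2 (19.4 ± 2.96), Ccl7 (18.9 ± 0.439), Ccl5 (15.4 ± 3.75), Ccl9 (2.79 ± 0.334) and Cxcl16 (0.127 ± 0.0571). The controls' ranges of Cxcl2 and Ccl7 overlapped, and no other neighbours in this order did. In knockout-labelled libraries the order was the same and no neighbouring ranges overlapped, with Cxcl2 at 134.8 ± 8.11 and Ccl7 at 60.8 ± 6.76 CPM per kilobase.

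The 7 ligands together took 0.223% to 0.276% of all counts in controls and 0.404% to 0.422% in knockout-labelled libraries. Ccl3 alone held 85.6% ± 0.231 of ligand counts in controls and 83.2% ± 0.404 in knockout-labelled libraries (SD, n = 3 each). Over the same libraries the share of Cxcl2 went from 1.56% ± 0.42 to 6.97% ± 0.352 and that of Ccl4 from 11.4% ± 0.586 to 7.62% ± 0.0808. Most of the added counts thus came from Ccl3, while the largest proportional gain was that of Cxcl2.

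Among other chemokine ligand genes, 9 of 28 symbols have a row and 4 were tested, of which 2 fell and none rose. By comparison, 22.9% of all tested genes were called lower and 21.3% higher. Pf4, the platelet factor also made by macrophages, was at 169.8, 219.8 and 214.7 CPM in controls and 138.6, 109.6 and 127.4 CPM in knockout-labelled libraries. It fell by 0.68 ± 0.101 on the log2 scale (SE, adjusted p = 3.24e-05, edgeR). Cxcl14 fell by 1.06 ± 0.22 (SE, adjusted p = 0.000887, edgeR), from 9.24 to 16.03 CPM in controls to 4.37 to 8.03 CPM. Ccl25 (39.5 ± 4.57 against 43.3 ± 4.24 CPM) and Ccl1 (0.675 ± 0.217 against 0.581 ± 0.101 CPM, SD, n = 3 each) did not pass. On chromosome 5, Pf4 is the nearest tested gene to Cxcl2 on the side of lower coordinates, with 3 other coding genes between them.

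Of 9 tested chemokine receptor genes, 5 fell and 1 rose, and the median log2 fold change over the 9 was -0.58. Over all tested genes 22.9% were called lower and 21.3% higher. Ccr1, a receptor of Ccl3, Ccl5, Ccl7 and Ccl9, fell from 60.1, 61.1 and 56.9 CPM in controls to 15.7, 13.6 and 16.3 CPM, a log2 fold change of -1.97 ± 0.1 (SE, adjusted p = 8.89e-11, edgeR). Cxcr2, the receptor of Cxcl2, had too few counts to be tested, at 0.0708 to 1.24 CPM in controls and 0 to 0.209 CPM in knockout-labelled libraries.

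The receptor that rose was Ccrl2, a chemerin-binding atypical receptor that does not signal like the others. It was at 2.63, 4.04 and 3.82 CPM in controls and 14.9, 16.8 and 15.6 CPM in knockout-labelled libraries, a 4.62-fold rise (adjusted p = 2.59e-08, edgeR). The others that fell were Cxcr4, the receptor of Cxcl12 (-0.51 on the log2 scale), Cxcr3, the receptor of Cxcl10 (-1.17), the fractalkine receptor Cx3cr1 (-1.15) and Ccr4 (-1.76). The call for Cx3cr1 was lost without control 1 or 2 or knockout-labelled 2 or 3 (the highest adjusted p was 0.109), and that for Ccr4 without control 1 (adjusted p = 0.0522). Mean levels were low for Cxcr3 (2.23 CPM in controls against 0.99 in knockout-labelled libraries), Cx3cr1 (1.825 against 0.794) and Ccr4 (0.903 against 0.27). When tested against a change of 1.5-fold, Ccr1 was the 1 receptor still called lower. Without control 1, 3 receptors were called lower, and with a filter of 5 CPM in 3 libraries 2 were.

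**Figure D3:**
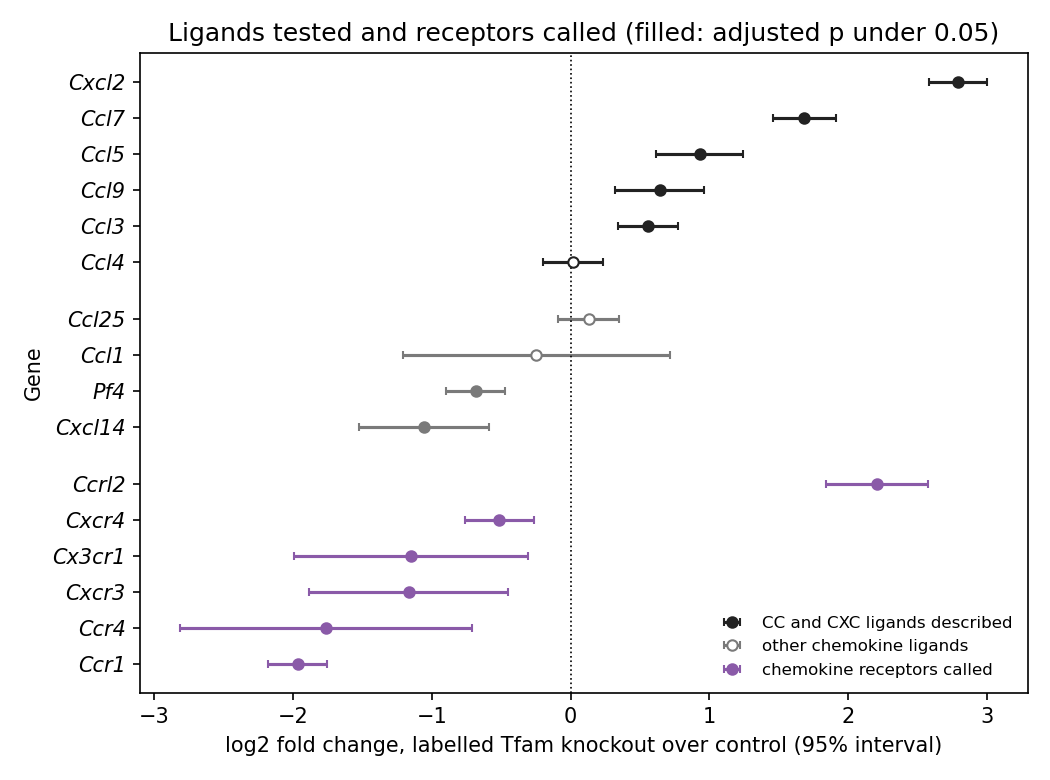
log2 fold change with 95% interval for the 6 tested ligands described, 4 other tested ligands and the 6 receptors that were called; filled points have an adjusted p below 0.05. Filled ligand points run from 0.56 (Ccl3) to 2.79 (Cxcl2), other filled ligands lie below 0, and Ccrl2 is the receptor to the right of 0.

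Of 27 tested genes of signalling below the receptors, 15 fell, 4 rose and 8 did not pass (median -0.36). The shares over all tested genes were 22.9% lower and 21.3% higher. Arrb1, an arrestin that uncouples and internalises receptors, fell from 166.7 ± 8.3 to 41.3 ± 2.42 CPM. Arrb2, the other arrestin of the list, did not pass (254.2 ± 8.35 against 263.2 ± 10.1 CPM, adjusted p = 0.599, edgeR). The regulators of G protein signalling Rgs2, Rgs1 and Rgs18 fell, with log2 fold changes of -1.85, -0.92 and -1.09. The 4 that rose were small changes, Grk6 (0.32), Pik3r5 (0.37), Rac2 (0.22) and Prex1 (0.18). The Prex1 call did not hold with DESeq2, limma-voom, no filter or a filter of 5 CPM. Calls were lost for Prex1 without control 2 or 3 or knockout-labelled 2 or 3 (the highest adjusted p was 0.166) and for Rac2 without control 1 or 3 or knockout-labelled 1 or 3 (highest 0.0883). Without control 3 or knockout-labelled 3, 2 signalling genes were higher, as with the replicate number as a block.

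Of 15 tested genes for proteases that shed or clip chemokines and for the heparan sulfate that holds them, 8 fell, none rose and 7 did not pass (median -0.41). All tested genes were called lower in 22.9% and higher in 21.3%. The macrophage elastase Mmp12 fell from 64.1 ± 8.39 to 1.7 ± 0.632 CPM, and the collagenases Mmp8 and Mmp13 fell, with log2 fold changes of -2.15 and -1.93. The heparan sulfate proteoglycan Sdc3 had a log2 fold change of -1.44. Without control 1 or with library totals, 1 gene of the list was called higher.

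Genes for decay of cytokine and chemokine mRNAs were called in both directions, 4 higher and 3 lower of 11 (median 0.05). Calls over all tested genes were 21.3% higher and 22.9% lower, so both directions are common. Zc3h12a (Regnase-1), a ribonuclease that cuts inflammatory mRNAs, was at 21.1, 19.6 and 23.99 CPM in controls and 61.5, 65.3 and 66.8 CPM in knockout-labelled libraries. Its relative Zc3h12c rose by 1.33 on the log2 scale, the kinase Mapkapk2 by 0.79 and Rc3h2 by 0.29, the last a call lost without control 2 or knockout-labelled 2 or 3 (the highest adjusted p was 0.107). The AU-rich element binding genes Zfp36l1, Zfp36 and Hnrnpd fell, with log2 fold changes of -1.65, -0.67 and -0.37.

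Of 26 tested transcription factors that act on chemokine genes, 14 rose, 7 fell and 5 did not pass (median 0.38). Among all tested genes 21.3% were called higher and 22.9% lower. Nfkb1, the p105 and p50 NF-kB subunit, rose from 90.4 ± 7.64 to 219.4 ± 14.01 CPM. Of the other NF-kB subunits, Nfkb2, Rel and Relb rose, by 0.97, 0.83 and 1.05 on the log2 scale. Rela did not pass (0.10, adjusted p = 0.294, edgeR). The NF-kB coactivator Bcl3 rose by 1.39 and Cebpd by 1.28 on the log2 scale. Jun, an AP-1 subunit, fell from 313.0 ± 33.7 to 137.1 ± 42.7 CPM. Without control 3, 4 of these factors were called lower.

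**Figure D4:**
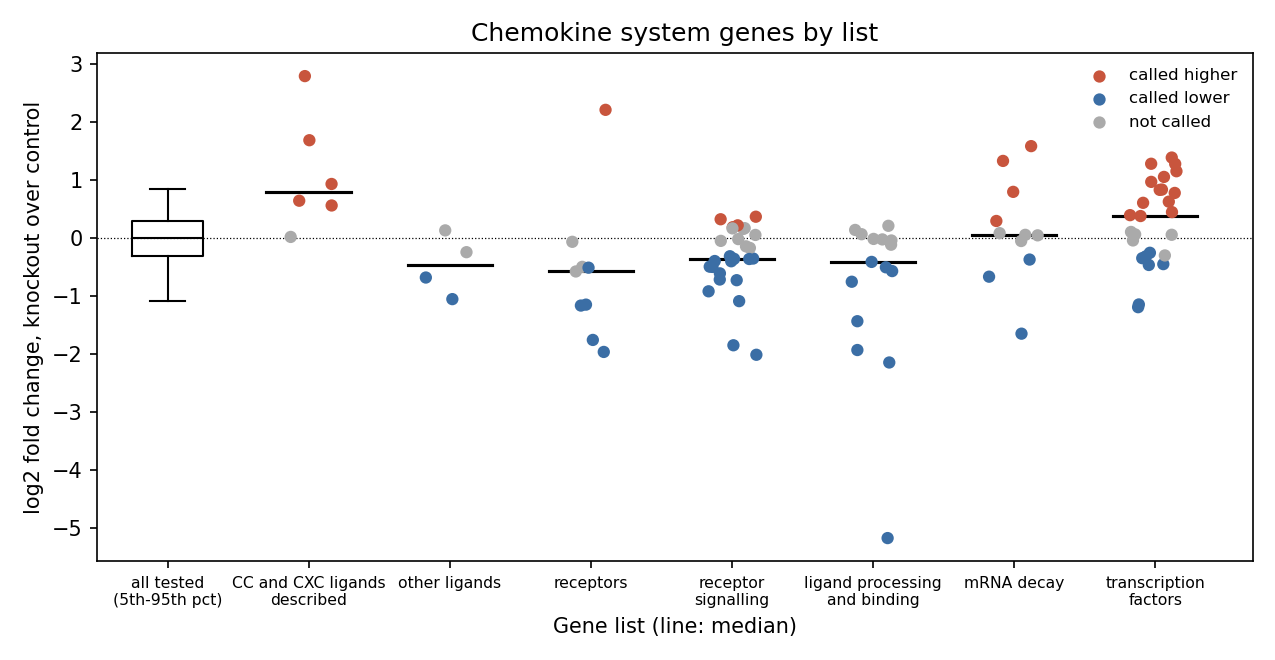
log2 fold change of tested genes in each list of the chemokine system, coloured by call, with the list median as a line; the box at the left holds the middle of all tested genes with whiskers from the 5th to the 95th percentile. The ligands described have a median of 0.79 and the receptors of -0.58.

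The nearest tested gene on each side of a ligand was also read from the annotation, and untested coding genes can lie between. Within the CC cluster on chromosome 11, Ccl5, Ccl9 and Ccl3 are consecutive among tested genes and all rose, then follow Ccl4 and Wfdc17 (0.49 on the log2 scale). At the other edge Taf15 was called with a small rise of 0.23. Calls were lost for Wfdc17 without control 1 (adjusted p = 0.0592) and for Taf15 without control 2 or 3 or knockout-labelled 2 or 3 (highest 0.162). Around Ccl7 neither Asic2 (0.41) nor Ccl1 (-0.25) passed. Beside Cxcl2, Mthfd2l did not pass (-0.07), and beside Cxcl16, Med11 rose by 0.51 while Tm4sf5 did not pass (-0.26).

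The profiles most like that of Cxcl2 were sought among 9461 genes averaging 5 CPM or more, by the root mean square difference of mean-centred log2 CPM over the 6 libraries. Rab11fip1 was nearest (0.1), from 19.8 ± 2.28 to 130.0 ± 4.31 CPM. Gbp2 (0.21) and Rsad2 (0.28), both known as interferon-stimulated genes, came next, rising 6.51-fold and 4.90-fold. This distance grows with any difference in fold change, so rises near that of Cxcl2 follow from the search. None of the 6 tested ligands of the set was called lower, so no profile was sought for a fall.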

How the data were processed

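Unnormalized counts of reads for each gene were deposited by the authors, beside a table of log2 values. In the authors' log2 table each entry was found to equal log2(scaled count + 8), with counts scaled to a common library total. The submitters' processing notes name GRCm39, featureCounts 2.0.0, HISAT2 2.1.0, SAMtools 1.9 and bcl2fastq 2.17; strand and multi-mapping settings are not given in the sources used here. Per the labels' protocols the libraries were made from polyA RNA with NEBNext Ultra RNA reagents, known as an unstranded kit.

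The test was the quasi-likelihood one of edgeR 4.0.16, run in R 4.3.3 (filterByExpr, TMM scaling, glmQLFTest, no covariates, Benjamini-Hochberg over 13403 genes, 4469 untested), a step tested on simulated data. SE is the log2 fold change over the root of F. Alternatives used DESeq2 1.42.0 and limma 3.58.1, other scalings and filters, the replicate number as a block, a test against 1.5-fold, and each library left out. The members and lists were chosen with earlier results of these data known. Named genes were Tfam, the ligands, annotation neighbours and the 3 nearest profiles of Cxcl2. From each list came up to 4 called genes of largest change averaging 1 CPM or more, and all members of counts of 5 or fewer. Predicted gene models were skipped. Ccl25, Ccl1, Cxcr2, Arrb2, Nfkb2, Rel, Relb, Rela, Mbp and Aif1 were chosen after their values were seen. Exon lengths came from GENCODE M21 and promoters and gene order from RefSeq, both on GRCm38, another build than the authors'. Transcripts were compared with BLAST 2.17.0. Of 4 ligand pairs planned for a ratio, 1 could be computed. No column was without a sample.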

Additional observations from a re-analysis of the deposited data

How the results depend on the processing

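The calls for Cxcl2, Ccl7 and Ccl5 held in all 15 alternatives, with log2 fold changes from 2.68 to 2.90, 1.64 to 1.78 and 0.73 to 1.06. The call for Ccl5 only just passed when tested against 1.5-fold (adjusted p = 0.0476, edgeR). The calls for Ccl3 (0.47 to 0.67) and Ccl9 (0.50 to 0.74) held in 14 and were lost when tested against a 1.5-fold change. Ccl4 passed in none and ran from -0.11 to 0.14. Scaling by library totals moved the median of all genes by 0.10 and the share of higher calls from 48.2% to 61.8% (61.6% in the authors' log2 table). With those scalings Tfam passed (0.24 and 0.25), and 7 signalling genes and 1 processing gene were higher. Against 1.5-fold, 389 genes were higher and 705 lower, with 3 ligands described, 0 signalling genes and 8 transcription factors higher, and lower 0 other ligands, 1 receptor, 3 signalling, 5 processing, 1 decay and 1 transcription factor gene. With a 5 CPM filter 2 receptors were lower. Leaving out libraries gave 3 to 6 receptors lower, 2 to 4 signalling genes higher, 0 to 1 processing genes higher and 4 to 8 transcription factors lower. Same-numbered libraries did not deviate together (correlations -0.104, -0.114 and 0.0395), and differently numbered ones ran from -0.0478 to 0.152. Deviations were centred within groups of 3, so these weak correlations cannot show whether same-numbered libraries shared a culture or batch. With the replicate block 2 signalling genes were higher and 5255 genes were called against 5926. Because the groups do not overlap in the ratio of Ccl4 to Ccl3, leaving out a library could not turn its direction, nor could adding 1 to such high counts. Ratios with Ccl2, Ccl6 or Cxcl10 were not run. The cause of each change was not tested, other than the stricter test. Depth limits Cxcl16, Cxcr2 and the untested ligands.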
